A study of Bos taurus with 16 samples.

Results

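Gene expression was compared between the endometrium and the circulating white blood cells (WBC) of 4 healthy Holstein dairy cows (cows 841, 850, 877 and 883). The samples were chosen by their titles, as the endometrium and the WBC arrays of healthy cows, and were paired by the cow number in the title. This gave 8 of the 16 arrays of the series, 4 from each tissue. The remaining 8 arrays came from 4 cows with subclinical endometritis (SCE, inflammation of the uterine lining without clinical signs). These were cows 718, 833, 836 and 846. Their arrays entered the normalization over all 16 arrays, a check of the same comparison in other animals, and a test of SCE status. All samples were taken at 45 to 55 days postpartum (DPP). Endometrium was sampled as a biopsy from the base of a uterine horn, and blood was drawn into PAXgene tubes, which fix RNA at sampling. Per the study's methods, 2 of the 4 healthy cows were in the luteal and 2 in the follicular phase of the estrous cycle, but the labels do not tie a phase to a cow. RNA from each sample was labelled with a single dye and hybridised to a custom bovine array, on which each spot gives the brightness of a 60-base probe. All values below are log2 normalized intensities of the same probe in both tissues, and a difference is endometrium minus WBC.

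The endometrium is the inner lining of the uterus. It holds a surface epithelium with ciliated cells, tubular glands that secrete proteins into the uterine lumen, a collagen-rich stroma, blood vessels, and resident immune cells, and a deep biopsy also reaches the smooth muscle of the myometrium. Blood collected as whole blood holds neutrophils, lymphocytes and monocytes made in the marrow and lymphoid organs, together with platelets and red cells, which carry RNA of their own. Genes made by a single class of cells therefore mark which cells a sample holds.

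Each slide of the series carried 8 arrays of a single tissue. Tissue and slide therefore coincide and cannot be told apart in any value given here. The median net signal of the healthy cows was 83.0 to 132 on WBC arrays and 248 to 300.0 on endometrium arrays before normalization. The scanner software called 68.6% to 71.9% of probes well above background on WBC arrays and 69.2% to 78.3% on endometrium arrays. In a bulk sample, fewer cells of a type and less RNA per cell cannot be told apart, which applies to every cell class named below. Array intensities give no counts, and the number of arrays limits the precision: the median SD over the 4 cows was 0.22 in endometrium and 0.20 in WBC, and the median standard error of a paired difference was 0.16.

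The transcriptomes of both tissues differed over a large part of the array. Genes counted here include unnamed transcripts that kept the name in the files, so that a gene may be counted more than once. With limma's TREAT test against a 1.2-fold threshold and the cow as a block, 26511 genes were tested. An adjusted p of 0.05 was passed by 13767, which is 51.9% of all genes tested. Of these, 5989 genes displayed a higher expression in endometrium (22.6%) and 7778 in WBC (29.3%). Among them, 3 and 77 genes were not well above background on any array of either tissue. A difference of at least 4-fold was reached by 2583 of the genes higher in endometrium (9.74% of all genes tested) and by 1577 of the genes higher in WBC (5.95%). The 4 endometrium and the 4 WBC values did not overlap for 16221 genes (61.2%). Of the genes at least 4-fold higher in endometrium, 898 were at background (not called well above it) on all 4 WBC arrays, whereas 171 of those at least 4-fold higher in WBC were at background on all 4 endometrium arrays.

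**Figure D1:**
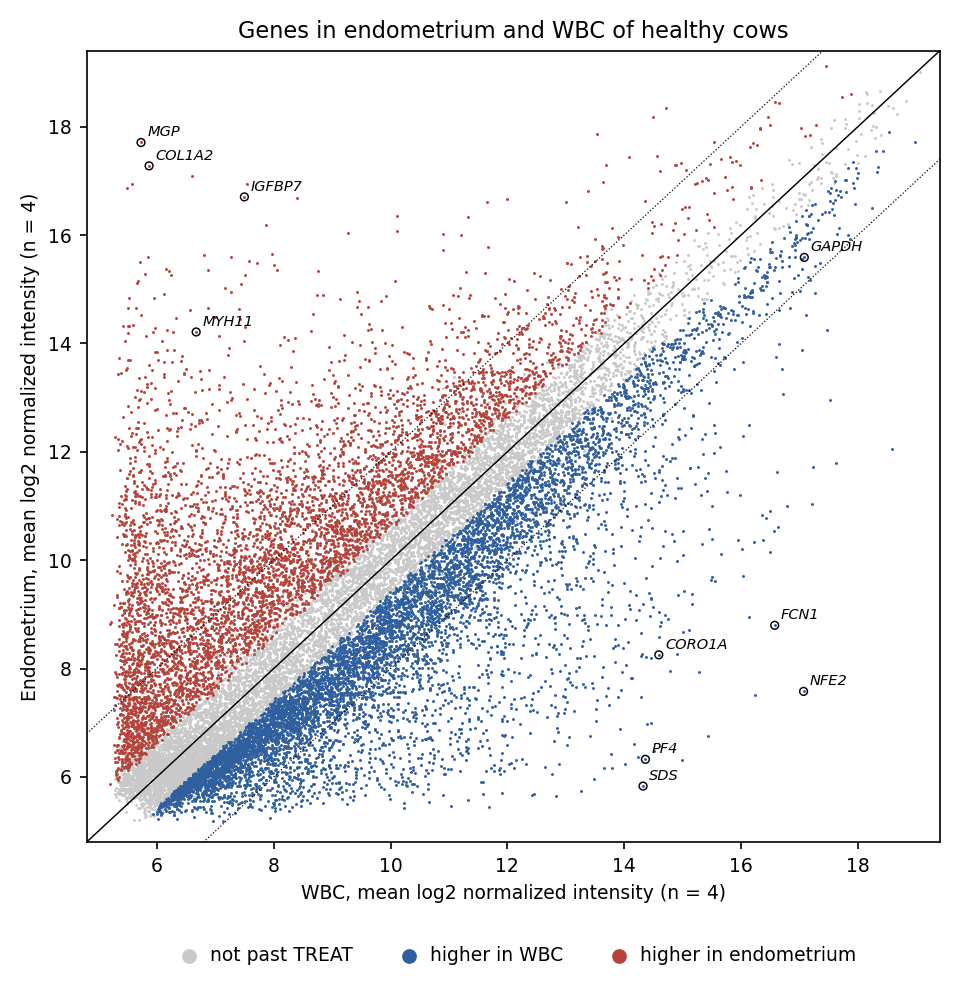
Mean log2 normalized intensity of 22684 genes in WBC (horizontal axis) and endometrium (vertical axis) of 4 healthy cows; genes at background in both tissues without a call are left out. Red and blue points passed TREAT, the solid line marks equal values and the dotted lines a 4-fold difference. The 5989 red points lie above the solid line and the 7778 blue points below it, and MGP, COL1A2, IGFBP7, NFE2 and FCN1 lie far from it.

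How the calls divided between the tissues depended on the scaling. Of the called genes, 43.5% were higher in endometrium after quantile normalization over all arrays. The share was 77.2% when arrays were normalized within each tissue and 82.7% without normalization between arrays. The median difference over all genes moved with it, from -0.16 to 0.32 within tissues, to 0.46 without normalization, and to -0.48 with processed signals scaled to the 75th percentile. It also moved with the base composition of the probes: among the 15487 genes measured on all 8 arrays, the median difference was 0.34 for the probes with the lowest GC content (up to 36.7%) and -0.85 for those with the highest (above 45%). The part of GC content in single results was not tested beyond a fit with this trend subtracted.

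Structural genes marked the endometrium. The probes of the markers whose values are given first are shown here by their first 30 bases, in lower case throughout. Genes were named through the accessions, symbols and descriptions of the array design, and the probe sequences were not aligned.

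EPCAM: gaagaccactgttgtgttgttagttaacat
COL1A2: gaatcagattgaacattggcccagtctgtt
MYH11: aggaaattcacactgttttatatgcactga
PGR: aggctgtcattatggtgtcctcacctgtgg
CSF3R: agaagagaatgccagtaagcccatcactaa
CD3E: ctccatgaatgtgctaaattccttgtcagc
MS4A1: tttcttttctctttcagcgttagtgttcac
PF4: aaatttgcctggaccagcagaatcctctgt
HBB: actgctgaggagaaggctgccgtcaccgcc

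Genes of the stroma and extracellular matrix displayed the highest median difference of the 26 gene lists examined. Of 25 measured members, 20 were higher in endometrium, 1 was higher in WBC and 4 did not pass TREAT, with a median difference of 4.04 against -0.16 over all genes. COL1A2, a chain of the main fibrillar collagen, read 17.56, 16.95, 17.39 and 17.20 in the endometrium of cows 841, 850, 877 and 883, and 5.96, 5.91, 5.58 and 6.02 in their WBC. All 4 endometrium values lay far above all 4 WBC values, none of which was well above background. The expression was at least 2628-fold higher in endometrium (TREAT adjusted p = 9.82e-07). Bounds of this kind set the dim tissue at the lowest signal among probes well above background, so the true ratio may be larger. Others of the list were MGP, an inhibitor of matrix calcification, at least 3894-fold higher, SPARC, which binds collagen, with a difference of 10.48, and FN1 (fibronectin) with 7.68, for which all 13 probes were called higher in endometrium.

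COL1A1 and DCN, the other leading members, did not pass TREAT on the probe that represents them, which is the brightest probe of each gene. COL1A1 had a difference of 0.71 (SE 0.20, TREAT adjusted p = 0.0636), while 4 of its 5 probes were called higher in endometrium, with differences of up to 10.76. DCN (decorin, a small proteoglycan that binds collagen) had -0.60 (SE 0.14, TREAT adjusted p = 0.0557), while 7 of its 9 probes were called higher in endometrium. The member called higher in WBC, BGN (biglycan), is described with its probes below.

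Smooth muscle genes were also higher in endometrium. Of 15 members, 11 were higher in endometrium, all by at least 4-fold, and 1 was higher in WBC, with a median difference of 3.30 (3.12 with members at background set to their bound). MYH11, the myosin heavy chain of smooth muscle, read 15.15, 14.86, 14.06 and 12.77 in endometrium and 6.87, 6.09, 6.33 and 7.40 in WBC. The tissues did not overlap, and the endometrium values themselves spanned more than 2 log2 units between cows 841 and 883. The difference was 7.54 (SE 0.52, 185.7-fold, TREAT adjusted p = 5.08e-05), with 2 of 4 WBC arrays well above background, and 8.26 without cow 883. CNN1 (calponin) was at least 293-fold higher in endometrium, and ACTG2, the enteric smooth muscle actin, had a difference of 0.49 (SE 0.45, TREAT adjusted p = 0.536) on its brightest probe that changed sign, to -0.02, without cow 841. Of the 3 ACTG2 probes, 2 were called higher in endometrium, with differences of up to 5.51. SYNPO2, an actin-binding protein, was the member higher in WBC, by 2.04-fold on its brightest probe. Of the 2 SYNPO2 probes only this 1 was called, and the differences ranged from -1.03 to 0.89.

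Endothelial genes were the most uniform of the structural lists. Of 20 members, 18 were higher in endometrium, 15 of them by at least 4-fold, with a median difference of 3.59. KDR, the main receptor for VEGF on endothelium, read 11.58, 11.90, 11.82 and 11.12 in endometrium and 6.86, 7.01, 6.88 and 7.34 in WBC. Values varied by less than 1 log2 unit within each tissue and did not overlap (23.9-fold, TREAT adjusted p = 1.17e-05). CDH5 (VE-cadherin, which joins endothelial cells) was at least 4.28-fold higher in endometrium and ROBO4, a guidance receptor of vessels, at least 220-fold, although another ROBO4 probe was called higher in WBC. PROX1, the transcription factor of lymphatic endothelium, was higher in WBC by 2.47-fold and was well above background on 1 endometrium array. PECAM1, an adhesion molecule shared by endothelium, platelets and leukocytes, had a difference of -0.35 and was not called on its brightest probe, while 2 of its 3 probes were called higher in endometrium.

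Epithelial genes were higher in endometrium for 15 of 25 members and higher in WBC for 4, with a median difference of 1.99 (1.87 with bounds). EPCAM, an adhesion molecule of epithelia, read 14.39, 12.36, 10.35 and 13.82 in endometrium and 6.05, 6.47, 6.95 and 6.70 in WBC. The tissues did not overlap, but the endometrium values spread widely, from 10.35 in cow 877 to 14.39 in cow 841. The difference was 6.19 (SE 0.73, 73.1-fold, TREAT adjusted p = 0.000502), with 3 of 4 WBC arrays well above background. It was 5.48 without cow 841 and 7.12 without cow 877. CDH1 (E-cadherin) showed the same order of cows at its low end, with 9.35 in cow 877 and 10.44 to 12.16 in the others, against 6.80 to 7.40 in WBC (14.6-fold, TREAT adjusted p = 0.000318). Of the 3 CDH1 probes, only this 1 was called, and the lowest difference was 0.30. MAL2 and DSP (desmoplakin) were at background on all WBC arrays and were at least 43.9-fold and 44.4-fold higher in endometrium. KRT8, KRT19 and CLDN4, which encode keratins and a tight junction protein, were called higher in WBC on their brightest probe, by 3.18-fold, 2.76-fold and 2.76-fold.

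Genes of uterine gland secretions were higher in endometrium for 12 of 19 members and in WBC for 3, with a median difference of 1.39 (1.24 with bounds). GRP (gastrin-releasing peptide) read 17.85, 18.08, 14.19 and 17.67 in endometrium and 5.30 to 5.89 in WBC. It was at least 2327-fold higher, with cow 877 again lowest in endometrium. SERPINA14, which encodes the uterine milk protein, read 8.17, 6.68, 6.62 and 10.19 in endometrium and was not well above background in WBC (at least 4.54-fold, difference 2.50, TREAT adjusted p = 0.0158). The call was lost without cow 841 (TREAT adjusted p = 0.0601), and the difference was 1.72 without cow 883. SAA3, an acute phase protein, ranged from 12.66 in cow 850 to 17.54 in cow 883 in endometrium against 6.06 to 6.65 in WBC. LTF (lactoferrin), which binds iron and is also stored in neutrophil granules, was 8.04-fold higher in endometrium. Members called higher in WBC were LCN2 (lipocalin 2, which binds bacterial siderophores and is also a neutrophil granule protein) by 6.65-fold, MUC20 by 3.77-fold and PAEP by 2.47-fold. PAEP has 3 probes, of which 1 was called, and the differences ranged from -1.30 to -0.14.

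Ciliary genes were less separated. Of 18 measured members, 9 were higher in endometrium, none was called higher in WBC and 9 did not pass TREAT, with a median difference of 0.95 (0.92 with bounds). SPAG6, a part of the axoneme, was at least 6.03-fold higher with all 4 probes called, and LRRC23, a radial spoke protein, had 2.84. FOXJ1, the master transcription factor of motile cilia, had a difference of -0.56 (SE 0.15, TREAT adjusted p = 0.0772), and DNAI1, an outer dynein arm chain, read 6.27 to 6.53 in endometrium with 3 arrays well above background. Neither of the 2 FOXJ1 probes was called, and their differences ranged from -0.56 to 0.22. On the brightest probe, the sign of the FOXJ1 difference turned under scaling within tissues (0.21), without normalization (0.39) and with the GC trend subtracted (0.28).

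Genes of uterine patterning and hormone receptors were higher in endometrium for 14 of 22 members, 12 of them by at least 4-fold, and higher in WBC for 1, with a median difference of 3.06 (2.95 with bounds). PGR, the progesterone receptor, read 11.05, 11.80, 9.96 and 9.67 in endometrium and 6.53, 6.64, 6.52 and 6.66 in WBC. The groups did not overlap (difference 4.03, SE 0.35, 16.3-fold, TREAT adjusted p = 0.000143), with 2 WBC arrays well above background. HOXA10, a homeobox gene that patterns the uterus, was at least 387-fold higher in endometrium, and EMX2, which acts in the development of the reproductive tract, at least 191.6-fold. OXTR, the oxytocin receptor, was at least 16.6-fold higher and read 12.44, 11.01, 8.65 and 7.18 in the endometrium of cows 841, 850, 877 and 883. ESR1, the estrogen receptor alpha, had a difference of 0.08 on its brightest probe (SE 0.16, TREAT adjusted p = 0.97), while 3 of its 4 probes were called higher in endometrium. The ESR1 difference was -0.02 without cow 850.

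**Figure D2:**
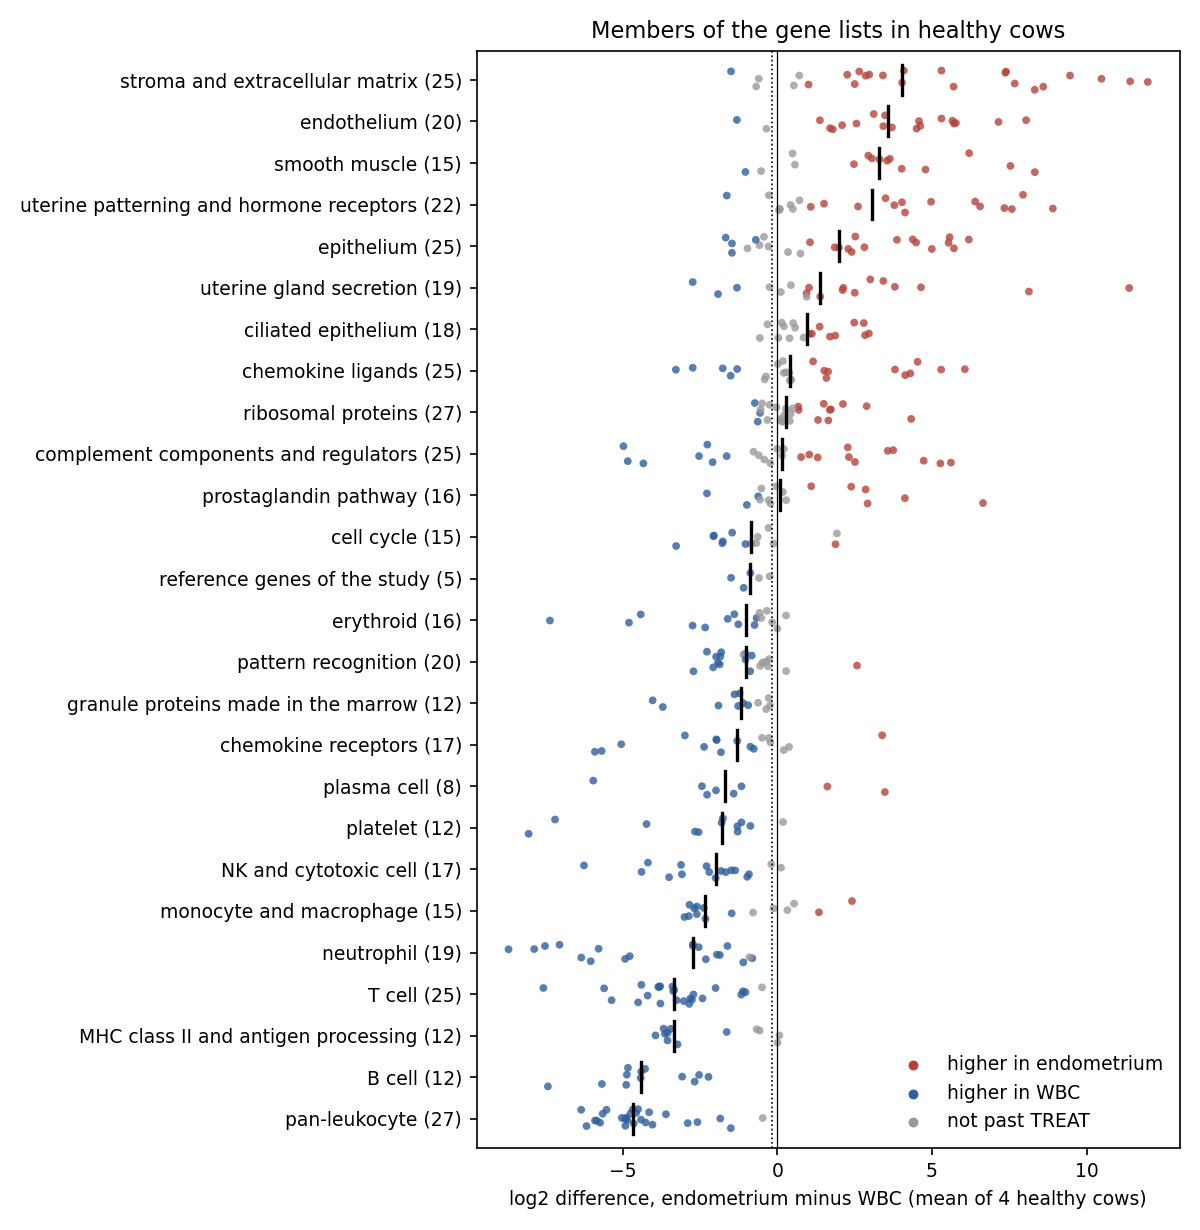
Difference between endometrium and WBC (log2, horizontal axis) of each measured member of the 26 gene lists, with the number of members in parentheses. Each point is a gene's mean over 4 healthy cows, red and blue points passed TREAT, black bars mark list medians and the dotted line the median of all genes (-0.16). The medians run from 4.04 for stroma and extracellular matrix to -4.67 for pan-leukocyte genes.

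Leukocyte genes marked the blood samples. Pan-leukocyte genes were higher in WBC for 26 of 27 members, 24 of them by at least 4-fold, and VAV1, a signalling protein of blood cells, did not pass TREAT on its brightest probe (difference -0.47, with 2 of 3 probes called higher in WBC), with a median difference of -4.67. CORO1A, which binds actin in leukocytes, read 8.69, 8.17, 8.28 and 7.88 in endometrium and 14.41, 14.44, 14.79 and 14.73 in WBC. No endometrium value came within 5 log2 units of a WBC value (80.9-fold higher in WBC, TREAT adjusted p = 2.68e-06). PTPRC, which encodes the common leukocyte antigen CD45, read 12.55, 12.18, 11.82 and 11.54 in endometrium and 13.81 to 13.97 in WBC, a smaller difference of -1.84 (3.58-fold, TREAT adjusted p = 0.000441). Leukocyte transcripts were also measured in the endometrium: 24 of the 27 genes were well above background on all 4 endometrium arrays. Only IKZF1, which encodes the lymphoid transcription factor Ikaros, was at background on all of them, and it was at least 28.8-fold higher in WBC.

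Neutrophil genes were higher in WBC for 18 of 19 members, with a median difference of -2.73. CSF3R, the receptor for the growth factor of neutrophils, read 6.42, 6.10, 6.61 and 6.37 in endometrium and 13.69, 14.20, 14.45 and 14.58 in WBC. The difference was -7.86 (SE 0.19, 231.8-fold, TREAT adjusted p = 1.45e-06), with 3 endometrium arrays well above background. S100A9 and S100A8, which form the calprotectin complex, were higher in WBC by 412-fold and 131.5-fold. CXCR1, a receptor for CXCL8, was at least 172-fold higher in WBC on a probe that the array design calls CXCR2, and the probe assigned to CXCR2 had a difference of -2.72, so that the paralogs are uncertain. Of 12 genes for granule proteins that are mostly transcribed in the marrow, 8 were higher in WBC and 4 did not pass, with a median of -1.16 (-1.06 with bounds). ELANE (neutrophil elastase) had a difference of -3.70 (13-fold), and MPO (myeloperoxidase) had -0.62 with overlapping tissues, from 9.82 to 11.67 in endometrium and from 11.11 to 11.54 in WBC (TREAT adjusted p = 0.157). The other MPO probe was called higher in WBC with a difference of -4.03, and the brightest probe passed without cow 877 (-0.87, TREAT adjusted p = 0.0317).

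Monocyte and macrophage genes moved in both directions. Of 15 members, 9 were higher in WBC and 2 were higher in endometrium, with a median difference of -2.32. CSF1R, the receptor for the growth factor of macrophages, read 11.34, 10.18, 10.99 and 10.95 in endometrium and 12.82, 13.27, 13.24 and 13.41 in WBC (5-fold, TREAT adjusted p = 0.000428). CCR2, the chemokine receptor of blood monocytes, was at background on all endometrium arrays and was at least 5.44-fold higher in WBC. The 2 members higher in endometrium were FCGR1A, the high-affinity receptor for IgG, by at least 5.33-fold, and MRC1, the mannose receptor of tissue macrophages, by 2.54-fold with 1 WBC array well above background. CD14, the co-receptor for lipopolysaccharide, had a difference of -0.78 over 3 cows, since a flagged spot removed the WBC value of cow 877 (TREAT adjusted p = 0.174).

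Lymphocyte genes were higher in WBC with few exceptions. Of 25 T cell genes 24 were higher in WBC, 20 of them by at least 4-fold, and LAT, an adaptor of T cell receptor signalling, did not pass on its brightest probe (difference -0.49, with 2 of 3 probes called higher in WBC). The median difference was -3.33. CD3E, a chain of the T cell receptor complex, read 9.53, 9.39, 9.50 and 9.30 in endometrium and 15.30, 14.75, 15.21 and 14.85 in WBC, with little spread in either tissue (48.4-fold, TREAT adjusted p = 1.45e-06). CCR7, the homing receptor of naive and central memory T cells for lymphoid organs, had a difference of -7.56. All 12 B cell genes were at least 4-fold higher in WBC, with a median of -4.41 (-4.34 with bounds). MS4A1, which encodes CD20, read 6.17, 5.72, 5.93 and 5.82 in endometrium, where 1 array was well above background, and 10.96, 11.90, 11.69 and 11.77 in WBC (50.9-fold, TREAT adjusted p = 7.16e-06).

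Genes of NK and cytotoxic cells were higher in WBC for 15 of 17 members, with a median difference of -1.99. PRF1 (perforin), the pore-forming protein of cytotoxic granules, was 8.47-fold higher in WBC and NKG7 3.98-fold. GNLY (granulysin) had the largest difference of this list, -6.25. KLRD1 was at background on every array of both tissues, and KLRF1 was well above background on 1 endometrium array only. Of 8 genes linked to plasma cells, 6 were higher in WBC and 2 higher in endometrium. JCHAIN, which joins polymeric immunoglobulins, read 8.68, 9.54, 10.48 and 9.50 in endometrium and 10.59, 10.86, 10.54 and 10.84 in WBC. Cow 877 read almost the same in both tissues, and the difference of -1.16 passed TREAT (adjusted p = 0.0244), although it was 0.02 without normalization between arrays. The call was lost without cow 841, 850 or 883 (TREAT adjusted p from 0.0694 to 0.0839). PRDM1 and XBP1, transcription factors of secretory cells that are also active outside the B cell lineage, were higher in endometrium by 11.1-fold and 3.07-fold, with all of their probes called.

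Genes of platelets and red cells were also measured in the blood samples, for which the study's methods describe a centrifugation that removes red cells with the supernatant before RNA isolation. Of 12 platelet genes 11 were higher in WBC, with a median of -1.78. PF4 (platelet factor 4) read 6.90, 5.80, 6.75 and 5.85 in endometrium and 14.69, 14.46, 14.14 and 14.16 in WBC, a 262.6-fold difference with 2 endometrium arrays well above background (TREAT adjusted p = 1.93e-06). Of 16 erythroid genes 10 were higher in WBC, with a median of -1.0 (-0.90 with bounds). HBB (adult beta globin) read 12.47, 13.81, 13.55 and 15.24 in WBC, lowest in cow 841 and highest in cow 883, and 6.17 to 6.70 in endometrium (163-fold, TREAT adjusted p = 3.21e-05). ALAS2, the first enzyme of heme synthesis in red cell precursors, was at least 23.3-fold higher in WBC, with cow 883 highest and cow 877 lowest. SLC4A1, the anion exchanger of the red cell membrane, was at background on all arrays of both tissues, so that no fold is given.

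**Figure D3:**
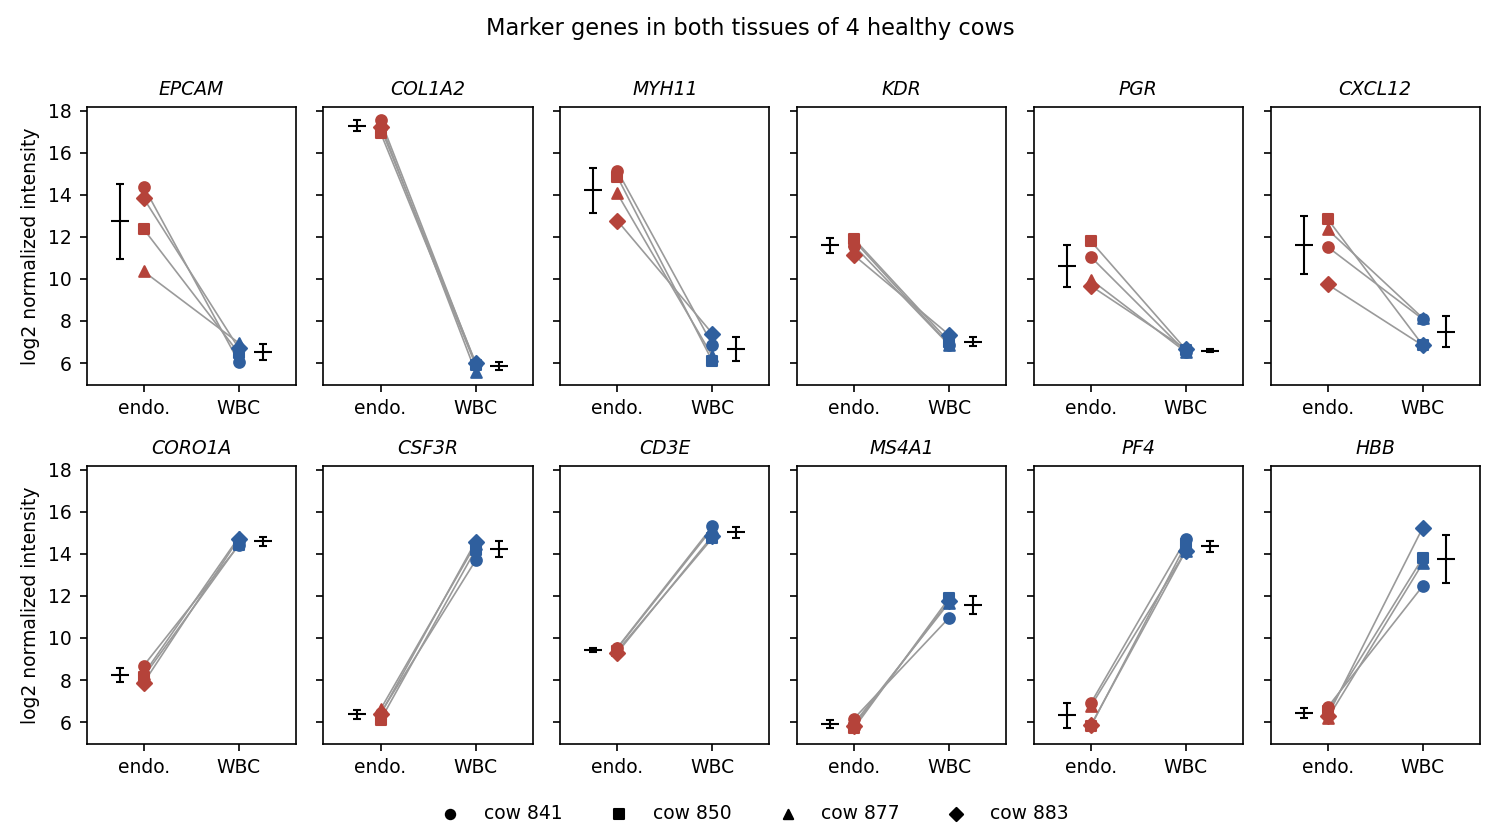
Log2 normalized intensity (vertical axis) of 12 marker genes in endometrium (red) and WBC (blue). Each symbol is a healthy cow, grey lines join the tissues of a cow, and black bars beside the points give the mean and SD of 4 cows. For each of the 12 genes the tissues are separate, whereas EPCAM and CXCL12 in endometrium and HBB in WBC spread widely between cows. Levels are not comparable between genes.

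Genes that act between both compartments were examined next. Their counts can be set against all genes, of which 22.6% were called higher in endometrium and 29.3% in WBC. Chemokine ligands guide leukocytes along gradients that are read by chemokine receptors. Of 25 ligands, 10 were higher in endometrium and 5 in WBC, with a median difference of 0.41 (0.34 with bounds). Of 17 receptors, 11 were higher in WBC and 1 in endometrium, with a median of -1.29. CXCL12, the ligand of CXCR4, read 11.52, 12.85, 12.35 and 9.74 in endometrium and 8.09, 6.85, 8.14 and 6.84 in WBC, without overlap (17.6-fold, TREAT adjusted p = 0.000468). The CXCL12 difference was 4.14, and 3.52 without cow 850. Its receptor CXCR4 was higher in WBC by 3.92-fold, while ACKR3, the atypical receptor that takes up CXCL12 and the sole receptor of the list higher in endometrium, was 10.5-fold higher there. CXCL3, a ligand of CXCR2, was at least 57-fold higher in endometrium, CXCL14 at least 30.4-fold and CCL2, which attracts monocytes, at least 13.3-fold. CXCL8, the main neutrophil attractant, read 6.89, 6.90, 6.90 and 6.71 in endometrium and 11.28, 9.92, 8.67 and 10.63 in WBC, the opposite of CXCL3 (9.7-fold higher in WBC, TREAT adjusted p = 0.000708). The other ligands with a large difference toward WBC were CCL16 (6.65-fold) and CCL3 (3.39-fold, with another CCL3 probe called higher in endometrium).

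Complement is a cascade of plasma proteins that tags microbes and recruits leukocytes. Of 25 components and regulators, 11 were higher in endometrium and 7 in WBC, with a median difference of 0.16. The share called higher in WBC was near the 29.3% of all genes. C1R and C1S, the proteases of the first component, had differences of 3.75 and 4.73 toward endometrium. C4A read 12.65, 14.61, 13.25 and 13.77 in endometrium and 8.05 to 8.74 in WBC, and SERPING1, the inhibitor of C1R and C1S, had a difference of 5.61. Members called higher in WBC were CFD (factor D, 31.4-fold), CFP (properdin, 20.1-fold), which both drive the alternative pathway, and C5AR1, the receptor for the C5a fragment (28.5-fold, with 1 endometrium array well above background). C3, the central component, reached 11.33 in endometrium, in cow 850, and read 10.91, 11.28, 10.83 and 10.88 in WBC. The tissues overlapped, none of 10 C3 probes was called and the difference was 0.21 (SE 0.13, TREAT adjusted p = 0.816).

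Prostaglandins made by the endometrium end the life of the corpus luteum in cattle. Of 16 genes for their synthesis, transport and receptors, 6 were higher in endometrium and 3 in WBC, with a median of 0.07 that was -0.13 without cow 850 and -0.10 without cow 883. The list was called about as often as all genes, of which 51.9% were called. PTGDS (prostaglandin D synthase) was at least 100.5-fold higher in endometrium. AKR1B1, a prostaglandin F synthase of the bovine endometrium, read 15.96, 14.13, 15.15 and 17.90 in endometrium and 11.49 to 12.01 in WBC, with all 5 probes called. PTGS2, the inducible cyclooxygenase, was at least 5.8-fold higher and read 10.61 in cow 850 against 6.99 to 8.32 in the others. Members called higher in WBC were ABCC4, an exporter of prostaglandins, by 4.84-fold, PTGIS by 1.98-fold on its brightest probe, and PTGFR, the receptor of prostaglandin F2 alpha, by at least 1.53-fold on 3 WBC arrays well above background. The PTGFR call was lost without cow 841, 877 or 883 (TREAT adjusted p from 0.0642 to 0.0872).

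Innate sensing and antigen presentation leaned toward WBC. Of 20 pattern recognition genes 12 were higher in WBC and 1 in endometrium, with a median of -1.02. TLR4, the receptor for lipopolysaccharide, was 1.83-fold higher in WBC (TREAT adjusted p = 0.0363), whereas LY96, which encodes its partner MD-2, was 5.97-fold higher in endometrium. The TLR4 call was lost without cow 850, 877 or 883 (TREAT adjusted p from 0.0790 to 0.1185), and the sign of the difference turned under scaling within tissues (0.12) and without normalization (0.33). TLR2, which senses bacterial lipopeptides, had a difference of -0.38 on its brightest probe and did not pass (adjusted p = 0.353), while 3 of its 4 probes were called higher in WBC. Of 12 genes of MHC class II and antigen processing, 8 were higher in WBC and none was called higher in endometrium, with a median of -3.34. BOLA-DRA, a class II chain, read 13.91, 14.53, 14.53 and 13.99 in endometrium and 16.85, 17.67, 17.59 and 17.75 in WBC, 9.35-fold higher in WBC (TREAT adjusted p = 1.82e-05). CTSS, a protease that processes the class II invariant chain, had a difference of 0.01.

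Genes of ribosomal proteins and of the cell cycle were called about as often as all genes, of which 51.9% were called. Of 27 ribosomal protein genes, 10 were higher in endometrium and 3 in WBC, with a median of 0.27 that was -0.51 with processed signals scaled to the 75th percentile. RPS27A had the largest difference, 4.33, on 1 of its 2 probes. Of 15 cell cycle genes, 7 were higher in WBC and 1, TYMS, which makes thymidylate, was higher in endometrium by 3.69-fold. CCNB1 (cyclin B1) read 10.58, 7.96, 10.37 and 13.40 in endometrium and 8.41 to 8.82 in WBC, so that the tissues overlapped in cow 850. Of the 5 genes that the study used or tested as PCR references, GAPDH was 2.82-fold higher in WBC (TREAT adjusted p = 0.000665), ACTB 1.83-fold and TPRG1L 2.13-fold. Of the 4 ACTB probes, 2 were called higher in WBC, and the differences ranged from -1.17 to 0.64. B2M and RPL19 did not pass, with differences of -0.59 and -0.24. The RPL19 difference turned to 0.23 under scaling within tissues and to 0.36 without normalization, and the B2M difference to 0.03 without normalization.

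The largest differences among all named genes measured on all 8 arrays were headed by NFE2 and IGFBP7. NFE2, a transcription factor of the myeloid, erythroid and megakaryocytic lineages, read 7.31, 7.34, 8.41 and 7.26 in endometrium and 16.45, 16.96, 17.57 and 17.29 in WBC (719-fold, TREAT adjusted p = 1.41e-06). IGFBP7, a secreted binding protein of insulin-like growth factors, read 16.24, 16.97, 17.01 and 16.60 in endometrium and 7.72, 8.32, 7.23 and 6.73 in WBC (590-fold, TREAT adjusted p = 2.24e-06). Next in endometrium were SMOC2 and THY1, of the matrix and of fibroblasts, and then NBL1, HTRA1, RAB34, PLPP3 and ADAMTS1, with differences from 8.33 down to 7.69. Next in WBC were FCN1, a lectin of monocytes (called FCN2 in the array design), HBG (a globin), F13A1 (coagulation factor XIII), S100A8, RIPOR2, IL1RN, the antagonist of the interleukin 1 receptor, and BCL2L15, with differences from -7.78 to -6.49. The HBG endometrium values reached 9.71 in cow 841 against 6.90 to 8.09 in the others.

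Among genes measured in a single tissue, those called with the largest TREAT statistic in endometrium were COL1A2, LAMB1 (a laminin chain), DKK3, EMX2, MGP, SASH1, CTTN (cortactin) and APOD (apolipoprotein D), at least 86.5-fold higher in each case. In WBC they were IGHE, SDS, ZNF296, IKZF1, CXCR1, PLEK (a platelet and leukocyte kinase substrate), DEF6 and CNR2 (a cannabinoid receptor of immune cells). SDS, which encodes serine dehydratase, read 5.68 to 6.10 in endometrium and 13.41, 14.30, 14.90 and 14.68 in WBC, at least 359.5-fold higher. IGHE, the constant region of immunoglobulin E, was at least 106-fold higher in WBC. Immunoglobulin constant regions resemble each other, and the specificity of this probe was not tested.

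Probes of the same gene did not always point the same way. Of 12168 genes with more than 1 probe, 730 (6%) had probes called in both directions. For 7 of the genes named here (BGN, DCN, KRT19, KRT8, PTGFR, PTGIS and SOX17) the sign of the difference turned when all probes were averaged in place of the brightest. The first 30 bases of contrasting probes of DCN, KRT8 and BGN are shown because each pair was designed for 1 gene and gave opposite or unequal differences. Probes are numbered from the brightest.

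DCN probe 1: cccctcctcctttccacacctgcaaactct
DCN probe 2: gctcccaagaaaaccctcatttttataacc
DCN probe 6: gtgttaagctgctgctgctgctaaggcaca
KRT8 probe 1: tcagcagccgctcctacaccagtgggcccg
KRT8 probe 2: ctttcgcccatgaccccacctaaaagccaa
BGN probe 1: ctgtggcctcttgcagccctgctggccctg
BGN probe 2: gggtttcaaaccatcacacccagcttgagg

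DCN probe 2 had a difference of 12.06 (SE 0.23) and was at background on all WBC arrays, whereas probe 1 had -0.60 and probe 6 had 0.20, both measured on all 8 arrays. The other 6 DCN probes had differences of 8.77 to 11.27, and averaging all probes gave 8.01. KRT8 probe 1, with a GC content of 68.3%, was called higher in WBC with -1.67 (SE 0.18), whereas probe 2, with 41.7%, had 4.39 (SE 0.50), and the remaining probes had 2.06 and 1.75. BGN probe 2 had 7.21 (SE 0.25) against -1.50 and -1.58 for the others, at GC contents of 55% to 60%. KRT19 had 3.21 and PTGIS 1.38 to 5.21 on the probes called higher in endometrium. In SOX17, a transcription factor of uterine glands and endothelium, the probes had -1.63 and 2.34 at the same GC content. The mean over probes was 1.63 for KRT8, 1.38 for BGN, 0.87 for KRT19, 1.94 for PTGIS, 0.35 for SOX17 and 0.04 for PTGFR. With probes averaged, 18 epithelial and 24 stromal genes were called higher in endometrium, and 1 and 0 higher in WBC.

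**Figure D4:**
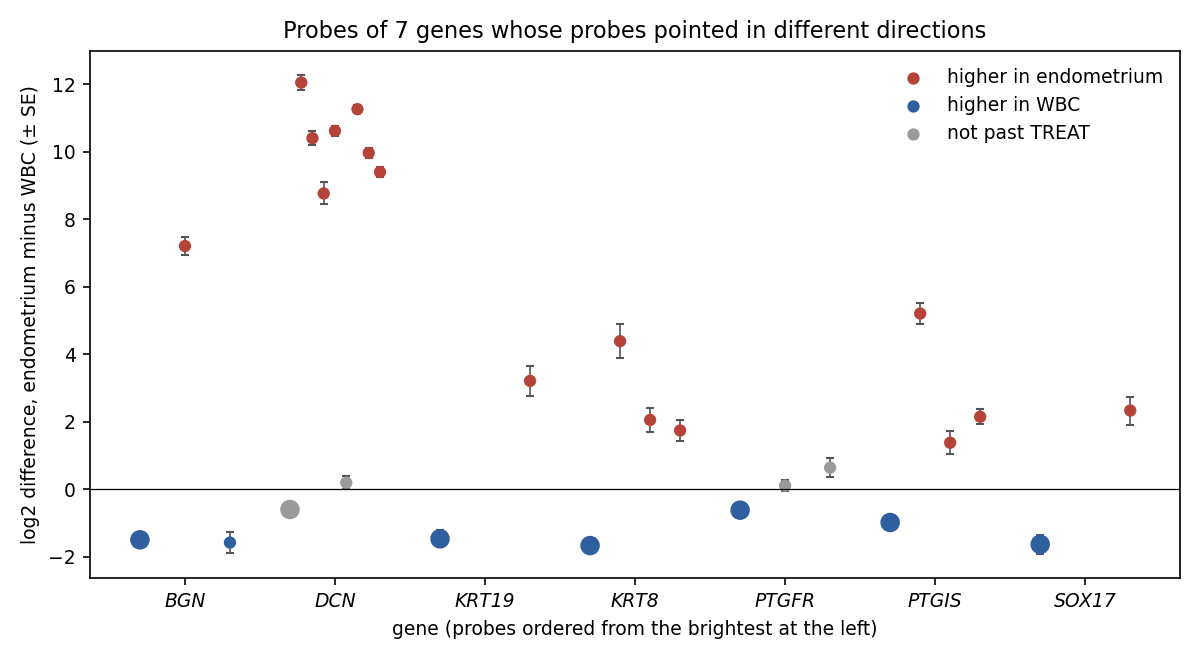
Difference between endometrium and WBC (log2, ± SE, vertical axis) of each probe of 7 genes, ordered from the brightest probe (large symbol) at the left; red and blue passed TREAT and grey did not. The brightest probe lies below 0 in all 7 genes, while 7 DCN probes lie between 8.77 and 12.06.

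More genes spread widely over the 4 cows in endometrium than in WBC. Among genes measured on each of the 4 arrays of a tissue, 694 of 17782 (3.9%) had an SD over 1 log2 unit in endometrium, against 98 of 17303 (0.566%) in WBC. Their median SD was 0.263 in endometrium and 0.208 in WBC. With 1 array per cow and tissue, a difference between cows cannot be told apart from one between biopsies or arrays. The genes with the largest SD are given as a description. In endometrium, PENK (proenkephalin) read 8.11 in cow 841 and 14.69, 14.39 and 16.97 in cows 850, 877 and 883, and was at background in WBC. CRIPTO, a co-receptor of Nodal, read 9.87, 7.73, 13.44 and 16.07, and PDZK1, a scaffold of membrane transporters, read 8.50, 8.69, 11.76 and 15.05, both highest in cow 883. CLDN10, a tight junction protein, ran the other way, with 15.27 in cow 841 and 7.99 to 9.38 in the others, and PRSS16 read 14.53, 9.81, 7.25 and 11.52. WBC values of these 5 genes stayed within 1 log2 unit of each other.

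In WBC, 4 of the 5 genes with the largest SD followed the same cow in both tissues. JSP.1, an MHC class I gene, read 18.67, 18.55, 13.90 and 18.27 in WBC and 17.10, 17.18, 10.93 and 16.72 in endometrium, with cow 877 low in both. BOLA-DQA5, an MHC class II gene, was high in cow 877 in both tissues, with 13.57 against 7.56 to 9.06 in WBC and 10.51 against 5.69 to 6.0 in endometrium. The probes of PRSS2 and KLK12, a trypsin and a kallikrein, were higher in cows 841 and 850 than in cows 877 and 883 in both tissues, by more than 3 log2 units in each. These 4 genes were higher in WBC within every cow and were called with the cow as a block. Without the block none passed (TREAT adjusted p from 0.192 to 0.388). PELI3, a ubiquitin ligase of innate signalling, was high in cow 850 in WBC only, with 14.30 against 9.82 to 10.54.

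**Figure D5:**
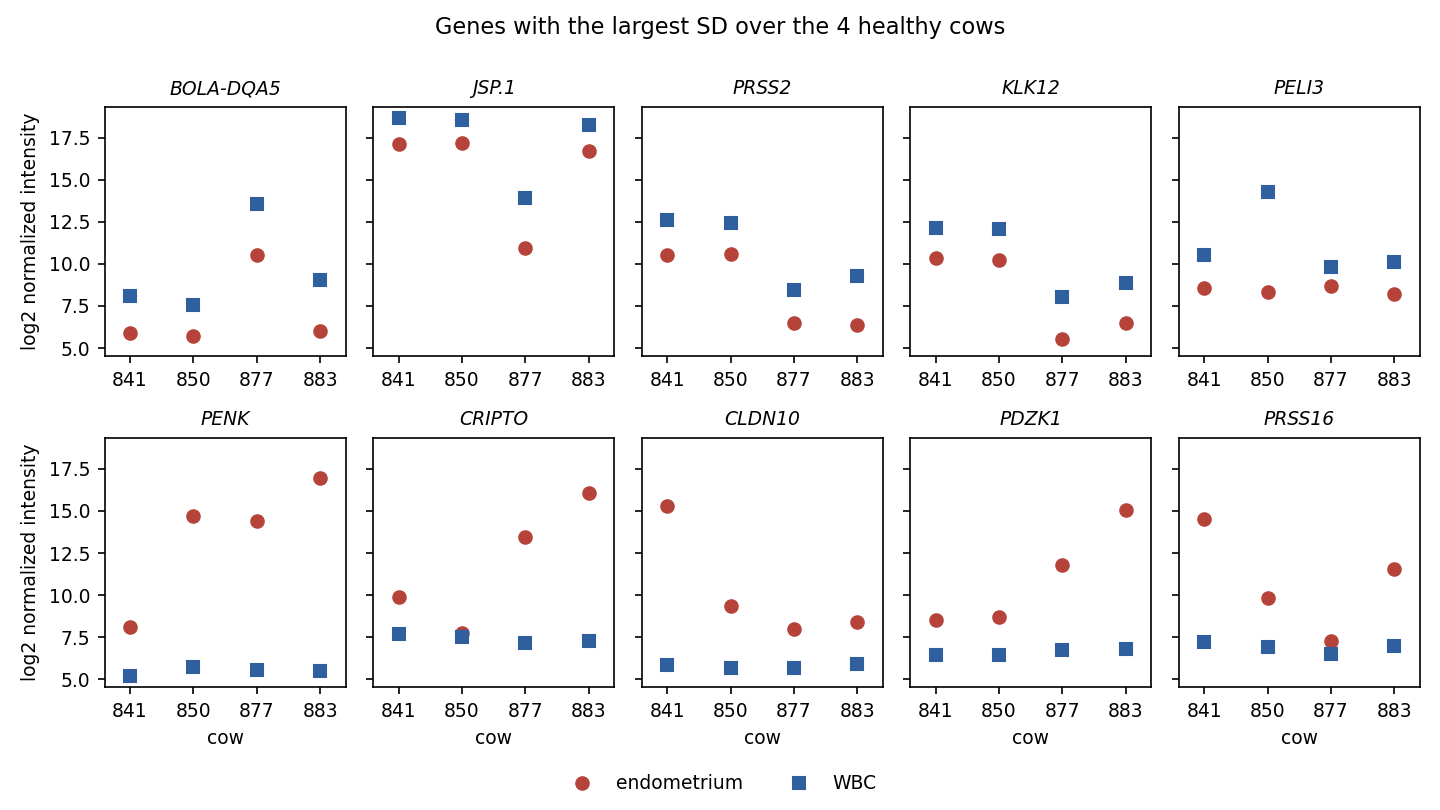
Log2 normalized intensity (vertical axis) by cow (horizontal axis) of the 5 genes with the largest SD in WBC (upper row) and the 5 with the largest SD in endometrium (lower row); circles are endometrium and squares WBC, 1 array each. JSP.1, BOLA-DQA5, PRSS2 and KLK12 differ between cows in both tissues, the lower 5 genes in endometrium.

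The same comparison was made in the 4 SCE cows, which lay on the same slides. Of 26470 genes tested in both groups of cows, 8999 passed TREAT in SCE cows (34%), 4391 higher in endometrium (16.6%) and 4608 higher in WBC (17.4%). Of these, 8589 were called in the same direction in healthy cows and none in the opposite direction, which is 95.4% of the SCE calls and 62.5% of the healthy calls. The count in SCE cows, on which these shares rest, depended on each animal: it was 5048 without cow 718, 14027 without cow 833, 5329 without cow 836 and 5368 without cow 846. The endometrium array of cow 833 had a median net signal of 79.0 against 257 to 316 in the other SCE cows, and its WBC array had the highest of its tissue, 202.5. Their part in the counts was not tested. Stromal genes had a median difference of 4.13 in SCE cows, B cell genes -4.14 and pan-leukocyte genes -4.48. Uterine gland genes had a median of 2.76 in SCE cows against 1.39 in healthy cows, a difference that was not tested. Per the study's methods, most of the SCE cows were in the luteal phase, while the healthy cows were split evenly between phases. SCE status and cycle phase are therefore unbalanced here and in the status test below. The paper reports that endometrial LTF and SAA3, members of this list, differed with phase in healthy cows.

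Whether the tissue difference itself changed with SCE status was tested across all genes. With limma and Benjamini-Hochberg adjustment, 0 of 26470 genes (0%) were called. An unadjusted p under 0.05 was reached by 448 genes, a smaller share than the 0.05 that chance alone gives. The power of this test is not given here, so the 0 calls do not show that the tissue difference is unchanged in SCE. The smallest p-values were those of CRYBG1, WNT2B and CD247, and none passed (limma adjusted p = 0.999987 for each). For CD247, a chain of the T cell receptor complex, the difference was -4.50 in healthy and -3.59 in SCE cows.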

How the data were processed

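Labelled RNA of 16 samples (endometrium and WBC of 8 cows) was hybridised to custom bovine Agilent arrays. The deposited scanner files hold spot intensities extracted by the authors with Agilent Feature Extraction 10.10.1.1, per the submitters' notes. The authors also deposited a table of normalized intensity values, which differed from quantile-normalized medians computed here by a median of 0.0516% and was used as an alternative. Columns with the authors' own comparisons were not used.

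Control spots and spots marked as outliers were left out. The median signals of the other spots were log2-transformed, quantile-normalized over 16 arrays and averaged per probe. Of 46615 probes, 60.1% were named through the accession in the design, and 25.8% kept the name in the files. A gene was represented by its brightest probe over the 8 healthy arrays, with the mean of its probes as an alternative.

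Differences were tested with limma 3.58.1 in R 4.3.3, as TREAT against a 1.2-fold threshold with the cow as a block, and p-values were adjusted by Benjamini-Hochberg over all probes or genes tested. The procedure was tested on simulated data with 4 pairs and 100 probes at each true log2 difference of 1 and 2. Of these, 2% and 71% were called, as were 2 of 46248 probes without a difference. Genes that did not pass TREAT are therefore not shown to be equal in both tissues. Both samples of a number come from the same cow, so the numbers pair the samples. Deviations from the tissue means correlated by 0.07, 0.15, 0.05 and 0.13 in cows 841, 850, 877 and 883. The p-values measure the spread over 4 cows.

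"Well above background" is the call of the scanner software. A tissue without such a call on any array was set, per array, at the higher of the lowest signal among probes well above background (5.49 to 5.77) and the probe's own value, and the ratio is given as "at least".

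The genes named were the first 2 members of each of 26 lists, up to 3 members called against the direction of their list, in each direction the 8 largest differences measured on all arrays and the 8 largest TREAT statistics of genes measured in 1 tissue, the 5 reference genes, the 5 genes with the largest SD per tissue, and the 3 with the smallest p for SCE status by tissue. Other list members were named as examples after their values were seen. The lists and the samples compared were chosen with earlier results of these data known. Of 500 genes listed, 33 had no probe that could be matched. Promoter motifs were not analysed here. Figures were drawn with matplotlib 3.10.9 in Python 3.11.15.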

Additional observations from a re-analysis of the deposited data

Results flagged for a closer look

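In 20 of 255 groups of 4 arrays tested (7.84%), 1 cow lay far from the other 3 by Dixon's criterion, where chance gives about 1 in 20 groups. The groups include genes named for their large SD over cows, which hold 3 of the 20 (JSP.1 in both tissues and PELI3 in WBC), so that the share cannot be read against chance. Cow 877 accounted for 7 of these, cow 841 for 6, cow 850 for 5 and cow 883 for 2. All values are log2 intensities.

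In cow 877, JSP.1 was low in both tissues, at 13.90 in WBC against 18.27 to 18.67 and at 10.93 in endometrium against 16.72 to 17.18. The endometrium of this cow was high for CXCR4 (10.46), DCN (12.86) and NFE2 (8.41), and its WBC were high for ACKR3 (7.55) and XBP1 (14.02). In cow 841, the endometrium was low for APOD (14.72), DKK3 (12.87), SASH1 (12.07) and TLR2 (16.73). Its WBC were low for CD74 (14.53) and high for SMOC2 (8.37).

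In cow 850, PELI3 was high in WBC, at 14.30 against 9.82 to 10.54. PRDM1 was also high in the WBC of this cow (10.51) and DCN was low (12.90). MUC20 (9.03) and the mean level of the reference genes (15.83, against 15.50 to 15.53) were high in its endometrium. In cow 883, KRT8 was high in WBC (12.34) and CXCL8 was low in endometrium (6.71, against 6.89 to 6.90).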

How the results depend on the processing

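Normalization within each tissue gave 10093 genes higher in endometrium and 2988 in WBC (77.2% higher in endometrium), with 4383 and 840 at 4-fold. No normalization between arrays gave 10461 and 2182 (82.7%), with 4959 and 763 at 4-fold, and 1966 calls in SCE cows. Processed signals scaled to the 75th percentile gave 3141 genes at least 4-fold higher in WBC. Subtracting the trend on probe GC content, an alternative chosen after seeing the data, gave a share of 50.03%. A 2-fold TREAT threshold gave 3319 and 2762 genes (54.6%) and 3399 calls in SCE cows. The causes were not tested.

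Single genes turned sign. Within tissues the differences were 0.15 for CD14, 0.028 for DCN, 0.21 for FOXJ1, 0.28 for MPO, 0.23 for RPL19, 0.069 for TLR2 and 0.12 for TLR4. Without normalization they were 0.033 for B2M, 0.49 for CD14, 0.23 for DCN, 0.39 for FOXJ1, 0.017 for JCHAIN, 0.51 for MPO, 0.062 for PTGIS, 0.36 for RPL19, 0.21 for TLR2 and 0.33 for TLR4. With processed signals RPS6 had -0.43 and the ribosomal median was -0.51, and with the GC trend subtracted FOXJ1 had 0.28. With probes averaged the differences were 1.38 for BGN, 8.01 for DCN, 0.87 for KRT19, 1.63 for KRT8, 0.045 for PTGFR, 1.94 for PTGIS and 0.35 for SOX17.

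Leaving out 1 healthy cow at a time gave 5496 to 5746 genes higher in endometrium, 6757 to 7353 in WBC, a share of 43.9% to 44.9%, and 2519 to 2617 and 1515 to 1715 at 4-fold, with 0 calls for SCE status by tissue throughout. The prostaglandin median ranged from -0.13 to 0.24, ACTG2 from -0.022 to 0.91 and ESR1 from -0.016 to 0.23. Calls in SCE cows ranged from 5048 to 14027, the highest without cow 833.

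Without the cow as a block, the paired analysis became 5976 genes higher in endometrium and 7905 in WBC (43.1%), with 2582 and 1571 at 4-fold, and 10672 calls in SCE cows. Among named genes, BOLA-DQA5, JSP.1, KLK12 and PRSS2 lost their call without the block and COL1A1 gained one (TREAT adjusted p = 0.0439). Of the values of named genes under all alternatives, 2071 kept their direction and side of the threshold, 104 lost and 42 gained the call, and 28 turned sign. Arrays saturated at most 1 spot, and 3918 genes were at background in both tissues.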
